A study of Homo sapiens with 6 samples.

Results

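The 9 genes described are immediate early genes and regulators of mRNA decay: the immediate early genes EGR1, IER2 and IER5, the AU-rich element (ARE) decay factors ZFP36, ZFP36L1, ZFP36L2 and KHSRP, the antiproliferative gene BTG1, and ELAVL1, whose protein stabilizes ARE mRNAs. They were picked by name, as a list drawn up with earlier results of these data known and with no threshold on a value, and are 9 of the 25420 genes with an annotated 3′ UTR. The data are SLAM-seq libraries of MOLM-13, an established human acute myeloid leukaemia cell line, exposed for 2 h either to 10 µM C646, an inhibitor of the acetyltransferases CBP and p300, or to the solvent DMSO as control. All libraries of both groups came from cells that took up 100 µM 4-thiouridine (4sU) during the last 1 h, and each group has 3 replicates. In SLAM-seq, the uridine analogue 4sU that cells build into new RNA appears as C where the genome has T, so a read with a T>C conversion (T>C read) stems from RNA built while the label was present. The treatment began 1 h before the label, so the reads without T>C hold old RNA, RNA made in C646 before the label was added, and reads of labelled RNA that happen to carry no conversion.

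Immediate early genes are transcribed within minutes of a stimulus, without the need for new protein, and their mRNAs are destroyed fast. Much of this decay runs through AREs, stretches of AUUUA motifs in the 3′ UTR. ZFP36 (tristetraprolin) and its relatives ZFP36L1 and ZFP36L2 bind AREs and recruit the CCR4-NOT deadenylase, KHSRP brings ARE mRNAs to decay enzymes, and ELAVL1 (HuR) binds the same kind of sequence and protects it. BTG1 binds the CCR4-NOT complex through its CAF1 subunits, which links it to deadenylation. Several of these regulators have AREs in their own mRNAs, and ZFP36 is known to act on its own transcript.

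Reads on 3′ UTRs numbered 7252597 to 10225448 in a library (the lowest and the highest of the 6), of which 635616 to 833410 were T>C reads in DMSO and 477824 to 686139 in C646. The T>C share of a library averaged 8.79% ± 0.0637 in DMSO against 6.48% ± 0.203 in C646 (SD, n = 3 each). All 10 myeloid markers examined were at 1 CPM (here, reads scaled to the plain 3′ UTR total of the library) or more in every library, with summed levels of 3749 to 4004 in DMSO and 3867 to 4144 in C646, most of it LYZ (2646 to 3096). Single markers differed without overlap: CD33 (168 to 187 in DMSO, 101.9 to 134 in C646), SPI1 (169 to 243, 69.0 to 112), CSF1R (26.5 to 29.5, 16.7 to 23.2) and FCGR1A (76.96 to 100.4, 72.2 to 76.3) were lower in C646, and FLT3 (101 to 135, 172 to 206) and PTPRC (13.8 to 20.5, 27.3 to 39.9) were higher. Of 9 genes taken as markers of other cell types, PECAM1 was the only one to reach that level in every library, and CD3E, HBB and ALB had no read in any library. The summed level of these 9 markers was 147 to 157 CPM in DMSO and 96.4 to 134 in C646, nearly all of it PECAM1, which was lower in C646 (145 to 155, 87.5 to 125), while COL1A1 (0.819 to 2.34, 5.71 to 6.65) and EPCAM (0 to 0.532, 0.685 to 1.86) were higher. The part of these markers in the results was not tested. Nothing in the labels says whether the replicates were separate cultures, so the p-values measure the spread between these libraries, which may be technical. No library without 4sU is analysed here, so T>C reads that stem from sequencing errors or from variants of the cell line were not subtracted. PCR copies count as separate reads, and the intervals given for single libraries cover counting error only.

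Each of the 9 genes has 1 annotated 3′ UTR entry, and each entry lies to at least 99.0% in the 3′ UTR of the last exon of the same gene in GENCODE. The pentamer ATTTA, written as DNA, was found in the entries of 8 of the 9 genes, and in 74.4% of the 7722 3′ UTRs of the genes tested for T>C reads, 1 per gene. The nonamer TTATTTATT, which contains the pentamer and the heptamer TATTTAT, is the core to which ZFP36 proteins bind best. It stood in the entries of ZFP36, ZFP36L1, ZFP36L2 and ELAVL1, once in each, against 8.29% of all 3′ UTRs (TATTTAT in 34.05%). The IER2 entry held no ATTTA, those of EGR1, IER5 and KHSRP held 1 each, that of BTG1 held 5 in 3802 bases, that of ZFP36 5 in 713 bases, that of ZFP36L1 8 in 1878 bases, that of ZFP36L2 5 in 1917 bases and that of ELAVL1 13 in 4910 bases. The share of 3′ UTRs of like length with as many ATTTA motifs or more was 6.51% for ZFP36, 16.7% for ZFP36L1, 42.7% for ZFP36L2, 40% for ELAVL1, and 76.7% to 83.05% for EGR1, IER5, BTG1 and KHSRP. The windows of 30 bases with the most ATTTA motifs are shown for the 4 genes with a nonamer, to show the letters behind these counts, and for IER5, which has a single motif. The windows of ZFP36 and ZFP36L2 include the nonamer, and those of ZFP36L1 and ELAVL1 do not. They are written 5′ to 3′ on the strand of the gene (GRCh38) with each ATTTA in capitals.
ZFP36: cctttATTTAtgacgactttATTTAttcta
ZFP36L1: cttATTTAacttatcaaaacgtATTTAttg
ZFP36L2: tgaaaactATTTAacttATTTAttatcttg
ELAVL1: ttATTTAtacctATTTAtgtATTTATTTAt
IER5: taagacgagagggATTTAgccaagagcaca
The windows lie at chr19:39409188-39409217 on the plus strand (ZFP36), chr14:68788345-68788374 on the minus strand (ZFP36L1), chr2:43223452-43223481 on the minus strand (ZFP36L2), chr19:7961839-7961868 on the minus strand (ELAVL1) and chr1:181090377-181090406 on the plus strand (IER5). The ELAVL1 window holds 4 motifs, the last of which overlaps its neighbour, and 1.32% of 605 3′ UTRs of like length had as many in 30 bases. The other nonamer genes have 2 motifs in their windows, as did 12.9% (ZFP36), 29.7% (ZFP36L1) and 30.2% (ZFP36L2) of 3′ UTRs of like length. A motif is a description of the letters and not a site shown to be bound.

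In DMSO, the T>C shares of the 9 genes, that is, the percentages of a gene's reads that carry a conversion, ran from 7.44% to 95.1%. Of the tested genes, 22.7% lay below all 9. ZFP36 stood at the top with 95.1% ± 3.32 (SD, n = 3), and 5 of 7717 tested genes with reads in any DMSO library had a higher share. Its T>C reads were 89 of 94, 70 of 71 and 69 of 75 in DMSO replicates 1, 2 and 3, with 95% Wilson intervals that reached from 83.6% to 99.8%. ZFP36L2 followed with 76.4% ± 0.465, EGR1 with 69.3% ± 9.73, ZFP36L1 with 67.4% ± 4.77, IER2 with 61.8% ± 4.49 and IER5 with 58.1% ± 4.80 (SD, n = 3 each). The ranges of EGR1 and ZFP36L1, of ZFP36L1 and IER2 and of IER2 and IER5 overlapped, so these neighbours did not differ beyond their spread. BTG1, at 29.2% ± 1.24, lay apart from all of these and above the median of the tested genes, 13.3%. ELAVL1 (11.1% ± 0.877) and KHSRP (7.44% ± 0.287) lay below that median and did not overlap each other. The immediate early genes and the ZFP36 family thus differed from KHSRP and ELAVL1, which share the ARE as their target, in how much of their mRNA was new.

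**Figure D1:**
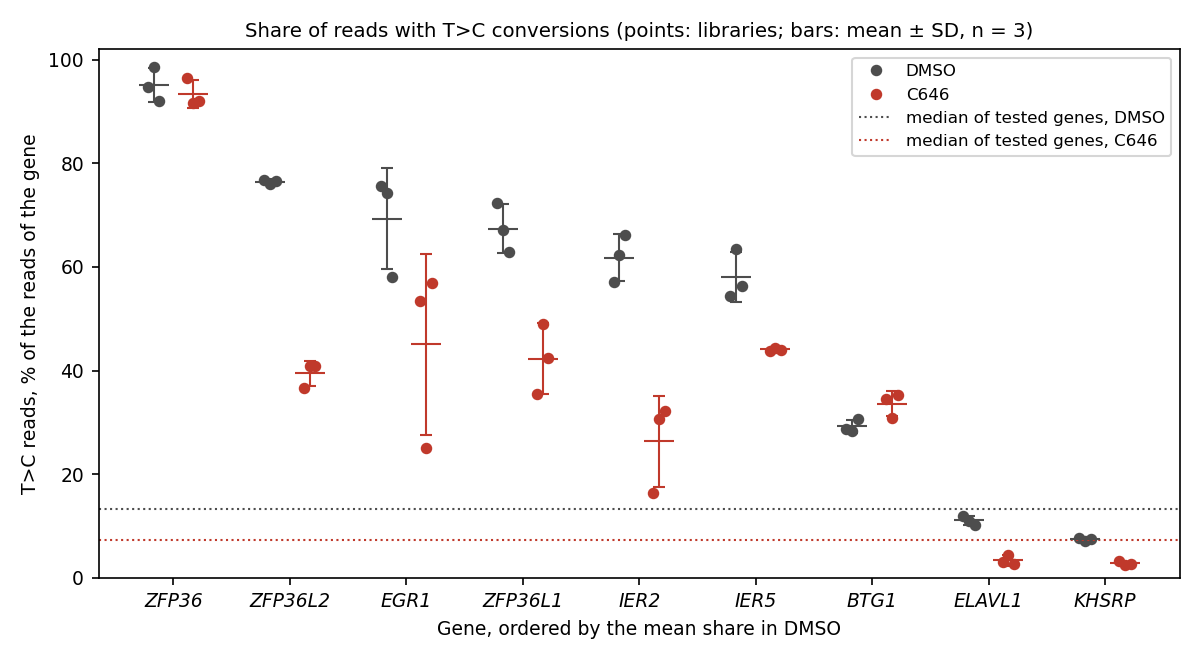
Share of each gene's reads that carry T>C conversions, in percent, in the 3 DMSO and 3 C646 libraries (points), with the mean and SD; dotted lines are the medians of the tested genes. ZFP36 had 91.6% or more in every library, BTG1 was the only gene with a higher share in every C646 library, and ELAVL1 and KHSRP lay below the medians in both groups.

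A read from a stretch rich in T has more chances to convert, so the conversions were also set against the covered T bases. Per 100 covered T bases, ZFP36 had 10.9 ± 0.905 conversions in DMSO, and 1 of the 7717 tested genes had more (median 0.913). EGR1 had 6.58 ± 1.76, ZFP36L2 5.65 ± 0.146, ZFP36L1 5.59 ± 0.661, IER2 4.42 ± 0.130, IER5 3.64 ± 0.445, BTG1 2.03 ± 0.191, ELAVL1 0.600 ± 0.111 and KHSRP 0.491 ± 0.0341 (SD, n = 3 each). Only ZFP36L2 and EGR1 changed places against the order by share, and their ranges overlapped. A T>C read of ZFP36 carried 5.05 ± 0.363 conversions (SD, n = 3), a T>C read of EGR1 3.69 ± 0.679, and those of the other genes 1.94 to 2.74 on average, against a median of 2.10 over all tested genes. ZFP36 therefore stood out by the number of conversions within a read as well as by the number of reads.

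The question put to these genes is whether C646 changed their new transcripts, and whether the pool of all transcripts followed. In T>C reads, IER5 and BTG1 rose, IER2, ZFP36L2, ELAVL1 and KHSRP fell, and EGR1, ZFP36 and ZFP36L1 did not pass the test. Tests were quasi-likelihood tests of edgeR, with p-values adjusted by Benjamini-Hochberg over all genes tested, and a gene was called where the adjusted p did not exceed 0.01 and the log2 fold change reached 1 or −1. The T>C reads were scaled by the TMM-scaled total of all 3′ UTR reads of the library, which sets new transcripts against total mRNA. Of the 9 genes, 4 were called lower in T>C reads, where 33.0% of all 7722 tested genes were, and 2 were called higher, where 2.97% were. With the T>C reads themselves as the basis of the scaling (TMM), 2 of the 9 were lower and 3 higher, and 596 of 7847 tested genes (7.60%) were lower and 717 (9.14%) higher, against 2548 and 229 when scaled by all reads. In CPM of T>C reads, groups did not overlap for 5 genes that were lower in C646 (EGR1 among them) and 3 that were higher (ZFP36 among them), against 55.8% and 6.46% of all tested genes. The median log2 fold change of all tested genes was −0.83 (quartiles −1.46 and −0.25), so a value near −0.83 is what a typical gene showed. In all reads, 1 gene (IER2) was called lower (background 1.87% of 10835 genes) and 2 (IER5 and BTG1) higher (background 5.92%). With the total of filtered reads as the scaling, 1 was lower and 3 higher (ZFP36L1 added at 1.01), and 90 of all tested genes (0.830%) were lower and 1014 (9.35%) higher, against 203 and 641. In reads without T>C, 0 of 8 tested genes were called lower by edgeR or by DESeq2 (background 0.880%), and 1, IER2, was lower at an unadjusted p under 0.05. IER5, ZFP36L1 and BTG1 were called higher there (3 of 8, background 8.01%). As these are bulk libraries, less RNA per cell and fewer cells carrying that RNA cannot be told apart.

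**Figure D2:**
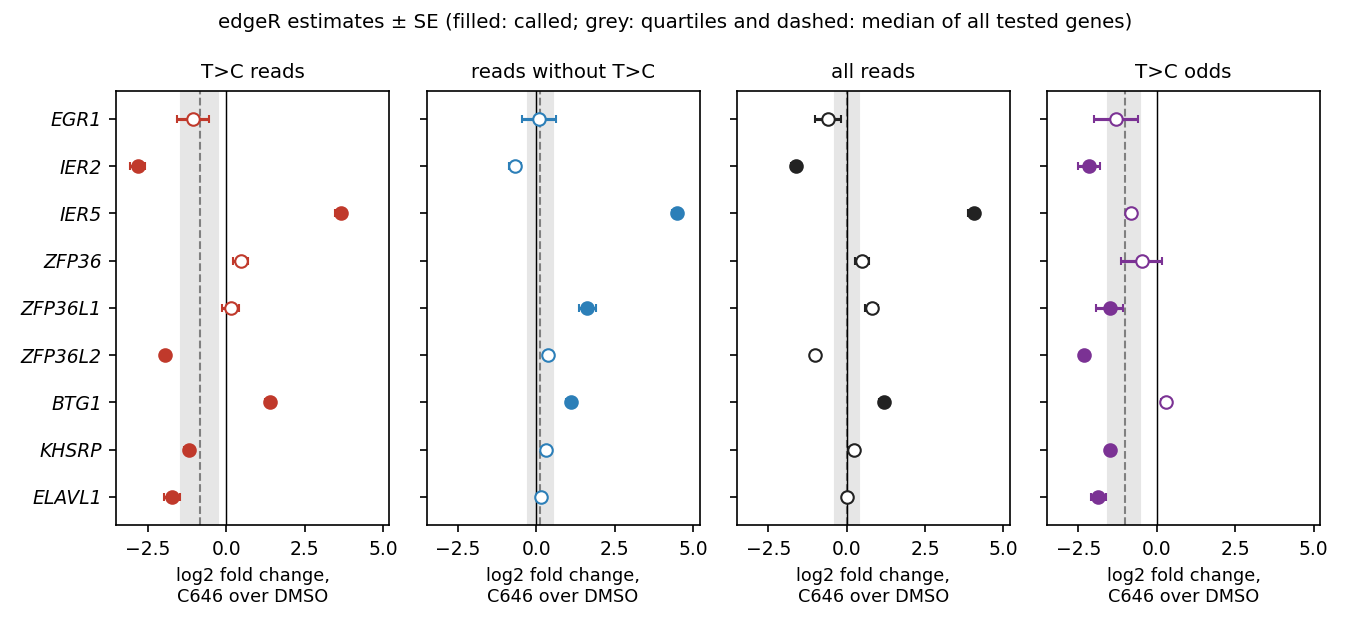
log2 fold change of C646 over DMSO (x axis) of the 9 genes in T>C reads, reads without T>C, all reads and the odds that a read is a T>C read, with standard errors; filled points were called, the grey band and dashed line are the quartiles and median of all tested genes. IER5 lies far to the right in all 3 kinds of reads, while ELAVL1 and KHSRP lie left of 0 in T>C reads and close to 0 in all reads; ZFP36 is missing from the reads without T>C, where it had too few to be tested.

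IER5 encodes a nuclear protein that binds the phosphatase PP2A and is known to feed into the activity of heat shock factor HSF1. Its 3′ UTR (Entrez 51278, chr1:181089887-181090843, plus strand, single exon) had 28.6, 41.0 and 31.1 CPM of T>C reads (T>C CPM, on the TMM-scaled total of all 3′ UTR reads of the library) in the DMSO libraries (replicates 1, 2 and 3 in that order, as throughout) and 349, 409 and 500 in the C646 libraries. All C646 libraries lay far above all DMSO libraries. In T>C reads the log2 fold change was 3.65 (standard error, SE, 0.16, adjusted p = 2.29e-17, edgeR), a 12.5-fold rise. In all reads, IER5 went from 52.5, 64.6 and 55.2 CPM in DMSO to 797, 922 and 1137 in C646. This is a log2 fold change of 4.05 (SE 0.17, adjusted p = 8.24e-10, edgeR). Reads without T>C rose even more, from 23.9 ± 0.272 to 532 ± 96.3 CPM (SD, n = 3), a log2 fold change of 4.48 (SE 0.17). Of the gain of 895 CPM, 56.9% was in reads without T>C. The T>C share went from 58.1% ± 4.80 to 44.1% ± 0.306 (SD, n = 3), with no overlap between groups, and the odds of a T>C read had a log2 fold change of −0.82 (SE 0.15, adjusted p = 9.25e-05, edgeR), short of the fold cutoff and above the median of all tested genes (−1.004). The 3 C646 libraries had shares between 43.8% and 44.4%.

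IER2, another nuclear immediate early protein of little-known biochemical function, moved the opposite way. Its 3′ UTR (Entrez 9592, chr19:13153859-13154904, plus strand) had 29.5, 34.9 and 35.7 T>C CPM in DMSO and 2.78, 4.66 and 6.45 in C646. Each C646 library held less than any DMSO library. On the log2 scale, the fold change was −2.82 (SE 0.24, adjusted p = 9.69e-11, edgeR), a 7.06-fold fall. All reads of IER2 went from 51.6, 56.1 and 54.0 CPM to 17.1, 15.2 and 20.04, a log2 fold change of −1.62 (SE 0.16, adjusted p = 1.41e-05, edgeR). In reads without T>C it was −0.68 (SE 0.20, adjusted p = 0.0181, edgeR), which missed the cutoffs. The odds of a T>C read fell by 2.17 on the log2 scale (SE 0.35, adjusted p = 2.24e-05, edgeR), with shares of 57.1% to 66.1% in DMSO and 16.3% to 32.2% in C646. Of its reads, 7.14% to 17.1% per library also mapped elsewhere, more than for any other of the 9 genes (at most 1.43%), so its counts are less certain. IER2 and IER5 started from nearly the same level of T>C reads, 33.4 ± 3.37 and 33.6 ± 6.59 CPM (SD, n = 3), and stood at 4.63 ± 1.84 and 420 ± 76.2 in C646.

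EGR1, a zinc finger transcription factor and a classic target of serum response factor, was scarce in these cells. Its 3′ UTR (Entrez 1958, chr5:138468082-138469315, plus strand) had 28, 23 and 25 T>C reads in DMSO and 8, 4 and 29 in C646, of 31 to 43 and of 15, 16 and 51 reads in all. C646 replicate 3 stood apart from the other C646 libraries and lay near DMSO. In T>C CPM, the DMSO libraries had 2.95 to 3.37 and the C646 libraries 1.06, 0.490 and 2.88, a log2 fold change of −1.05 (SE 0.51, adjusted p = 0.0815, edgeR) that did not pass the test. Without C646 replicate 3, the log2 fold change was −2.02 (adjusted p = 0.00403, edgeR), past the cutoffs, so that this library decides the call. The T>C share of C646 replicate 2, 4 of 16 reads, was 25% with a 95% Wilson interval from 10.2% to 49.5%, and that of replicate 3, 29 of 51, was 56.9% with an interval from 43.3% to 69.5%. In reads without T>C, the log2 fold change of EGR1 was 0.073 (SE 0.55), which took the opposite sign under several alternatives and was not detectable at this depth.

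**Figure D3:**
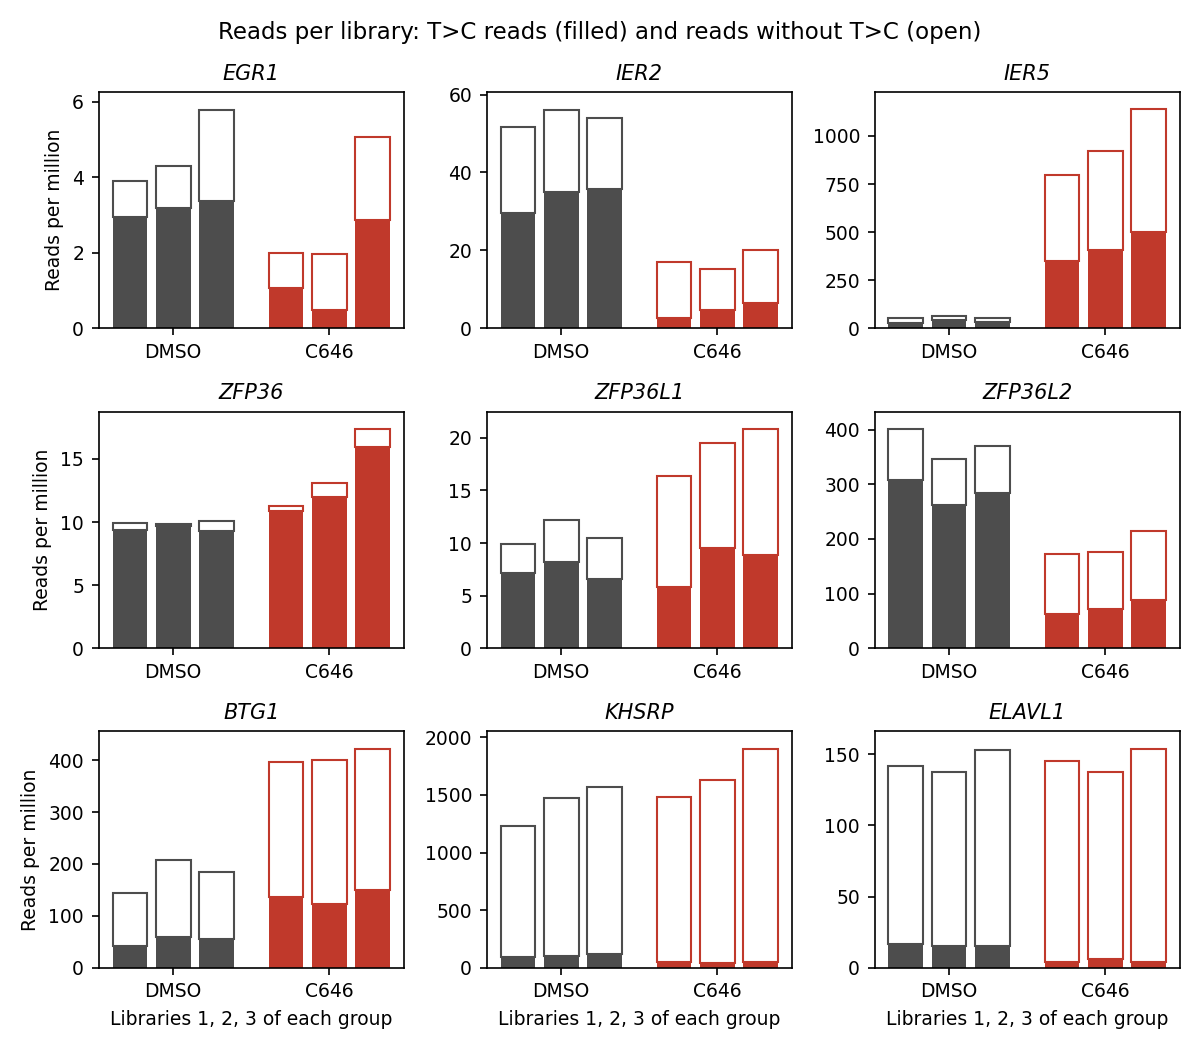
CPM in each library for the 9 genes, with T>C reads as the filled part and reads without T>C as the open part of each bar; replicates 1, 2 and 3 stand in that order for DMSO (grey) and C646 (red), and each panel has its own scale from 0. The bars of IER5 and BTG1 are taller in every C646 library, those of IER2 and ZFP36L2 shorter, and those of ELAVL1 keep their height while the filled part shrinks.

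The 3 ZFP36 family members, which bind the same element and have AREs of their own, differed in response. ZFP36L2 (Entrez 678, chr2:43222402-43224318, minus strand) had by far the most reads of the 3. It had 308, 263 and 284 T>C CPM in DMSO and 63.1, 71.7 and 87.6 in C646, with no overlap. On the log2 scale, the fold change was −1.94 (SE 0.14, adjusted p = 4.59e-12, edgeR), a 3.84-fold fall beyond the lower quartile of all tested genes. All reads went from 401, 346 and 371 CPM to 172, 176 and 214. The log2 fold change of −0.99 (SE 0.14, adjusted p = 0.000167, edgeR) was just short of the fold cutoff. It reached the cutoff at −1.05 without DMSO replicate 2 and at −1.10 without C646 replicate 3. Reads without T>C were 83.3 to 92.9 CPM in DMSO and 104 to 127 in C646 (log2 fold change 0.37, SE 0.14, adjusted p = 0.0561, edgeR), and so did not pass the test. The share of T>C reads was 75.9% to 76.9% in DMSO and 36.7% to 40.9% in C646, and the odds of a T>C read fell by 2.31 on the log2 scale (SE 0.15, adjusted p = 2.66e-11, edgeR). With conversions set against unconverted T coverage in place of reads, the odds of ZFP36L2 fell by 1.18 (adjusted p = 0.000198, edgeR), and the call held.

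ZFP36 (Entrez 7538, chr19:39408700-39409412, plus strand), the founding member, had 9.38, 9.70 and 9.29 T>C CPM in DMSO and 10.8, 12.0 and 16.0 in C646. All C646 values were above all DMSO values, but the log2 fold change of 0.46 (SE 0.23, adjusted p = 0.0913, edgeR) did not pass the test. Its approximate 95% interval, from the standard error and a normal quantile, reached from 0.0055 to 0.91, above the median of all tested genes. The unadjusted p of ZFP36 was not under 0.05 (edgeR), so the interval is too narrow and does not separate ZFP36 from no change. The TMM scaling of T>C reads, which moved the values of the tested genes up by a median of 0.83, put ZFP36 at 1.29 (adjusted p = 3.88e-05, edgeR), where it was called, as it was by DESeq2 with size factors of T>C reads (1.26). In all reads, the log2 fold change was 0.49 (SE 0.23, adjusted p = 0.112, edgeR). The T>C share was 93.3% ± 2.71 in C646 (SD, n = 3), the highest of 7722 tested genes. The odds of a T>C read had a log2 fold change of −0.48 (SE 0.66, adjusted p = 0.523, edgeR), with a 95% interval from −1.77 to 0.80 that includes the median of all tested genes (−1.004), so a share this close to its upper limit does not tell whether ZFP36 differed from a typical gene. Only 1 to 14 ZFP36 reads per library were without T>C, too few for a test of these reads.

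ZFP36L1 (Entrez 677, chr14:68787655-68789532, minus strand) showed a different pattern. Its T>C CPM were 7.17, 8.18 and 6.60 in DMSO and 5.82, 9.56 and 8.83 in C646, which overlap. On the log2 scale, the fold change was 0.15 (SE 0.27, adjusted p = 0.656, edgeR; 95% interval −0.38 to 0.67). Reads without T>C, by contrast, went from 2.74, 4.02 and 3.91 CPM to 10.6, 9.93 and 12.0. This rise of 1.62 on the log2 scale (SE 0.28, adjusted p = 0.000708, edgeR) was called, and 90.6% of the gain of 8.04 CPM in all reads lay in reads without T>C. All reads had a log2 fold change of 0.80 (SE 0.20, adjusted p = 0.00849, edgeR), short of the fold cutoff. The T>C share was 62.8% to 72.3% in DMSO and 35.5% to 49.1% in C646, and the odds fell by 1.497 on the log2 scale (SE 0.43, adjusted p = 0.00494, edgeR). That call was lost without each of DMSO replicates 1, 2 and 3 and C646 replicates 1 and 3 (log2 fold changes between −1.64 and −1.31, adjusted p between 0.0111 and 0.0388, edgeR). It was also lost with DESeq2 (−1.50, adjusted p = 0.0105), with a replicate block (adjusted p = 0.0116, edgeR) and with conversions against unconverted T coverage (−0.70, adjusted p = 0.126, edgeR).

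Among T>C reads, the makeup of the family shifted away from ZFP36L2 in every C646 library, by more than the spread between replicates. The log2 ratio of ZFP36 to ZFP36L2 T>C reads, with 0.5 added to each count, was −5.03, −4.75 and −4.92 in DMSO and −2.53, −2.57 and −2.45 in C646. The difference was 2.38, with no overlap between groups (exact permutation test, two-sided, p = 0.1 and thus the lowest value possible with 3 against 3 libraries, 0.15 adjusted over the 3 pairs). The ratio of ZFP36L1 to ZFP36L2 went from −5.27 ± 0.242 to −3.21 ± 0.275 (SD, n = 3), a difference of 2.07 (exact permutation p = 0.1, adjusted 0.15). That of ZFP36 to ZFP36L1 was 0.37 ± 0.123 and 0.69 ± 0.315 (SD, n = 3), which overlap (exact permutation p = 0.3). These are ratios of read counts from 3′ end libraries, not corrected for length, so only their differences between groups are compared.

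**Figure D4:**
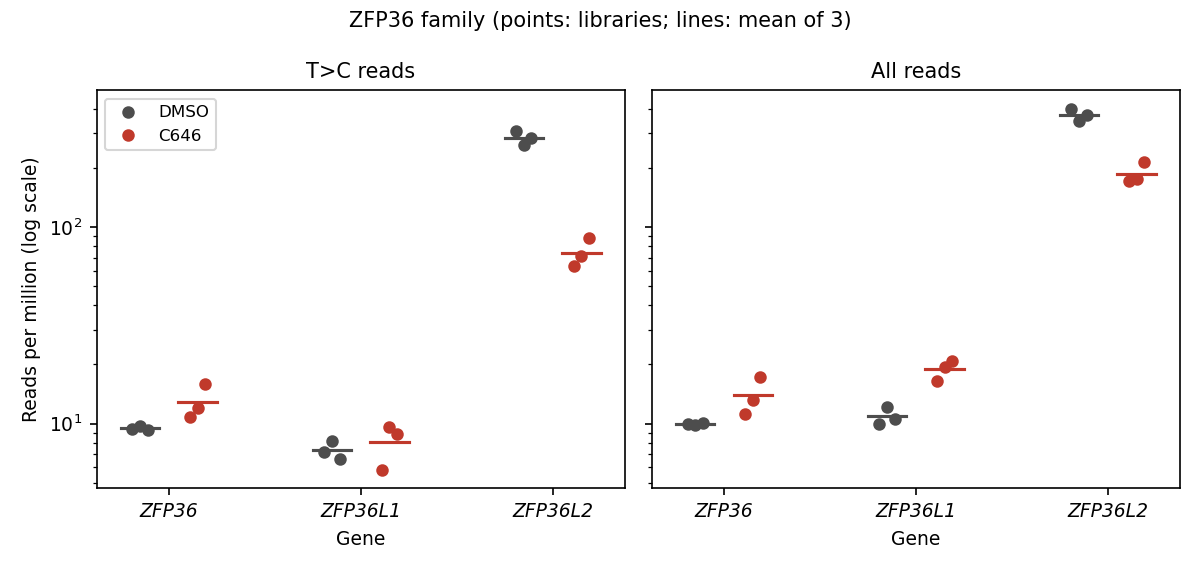
T>C reads (left) and all reads (right) of ZFP36, ZFP36L1 and ZFP36L2 in CPM on a log scale, with the 3 libraries of each group as points and their mean as a line. ZFP36L2 is lower in every C646 library in both panels, whereas ZFP36 is slightly higher, and ZFP36L1 overlaps in T>C reads but not in all reads.

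BTG1, which binds the CAF1 deadenylases and slows proliferation, rose in every kind of read. Its 3′ UTR (Entrez 694, chr12:92140278-92144079, minus strand) had 41.3, 58.6 and 56.4 T>C CPM in DMSO and 137, 123 and 149 in C646, with no overlap. On the log2 scale, the fold change was 1.39 (SE 0.16, adjusted p = 2.02e-08, edgeR), a 2.62-fold rise. All reads went from 144, 207 and 184 CPM to 397, 400 and 422. On the log2 scale, the fold change was 1.19 (SE 0.15, adjusted p = 7.90e-05, edgeR), and that of reads without T>C 1.10 (SE 0.15, adjusted p = 0.000150, edgeR). The latter lost its call by the fold cutoff at 0.97 without DMSO replicate 1 and at 0.9986 when these reads were scaled by themselves (TMM). BTG1 was the only one of the 9 genes whose T>C share was higher in each C646 library (30.8% to 35.4%) than in each DMSO library (28.3% to 30.6%), where 2.17% of all tested genes were. The log2 fold change of the odds was 0.29 (SE 0.15, adjusted p = 0.0974, edgeR) and did not pass the test. An entry of the noncoding gene LINC01619, 225 bases long, lies within the BTG1 3′ UTR on the same strand and had 0 to 5 reads per library.

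KHSRP and ELAVL1 lost T>C reads while their pools of all reads did not pass the test. KHSRP (Entrez 8570, chr19:6413108-6414111, minus strand) had 94.6, 105 and 117 T>C CPM in DMSO and 46.8, 41.7 and 49.8 in C646. These do not overlap, and the log2 fold change was −1.19 (SE 0.15, adjusted p = 1.82e-07, edgeR), within the quartiles of all tested genes. In all reads, KHSRP had 1228, 1469 and 1564 CPM in DMSO and 1479, 1629 and 1898 in C646, which overlap (log2 fold change 0.23, SE 0.14, adjusted p = 0.226, edgeR). ELAVL1 (Entrez 1994, chr19:7958573-7963482, minus strand) had 16.97, 15.1 and 15.6 T>C CPM in DMSO and 4.36, 6.13 and 3.97 in C646. T>C reads of ELAVL1 fell by 1.73 on the log2 scale (SE 0.25, adjusted p = 1.42e-06, edgeR), beyond the lower quartile of all tested genes. All reads of ELAVL1 were 141, 137 and 153 CPM in DMSO and 145, 138 and 154 in C646, with a log2 fold change of 0.017 and a 95% interval from −0.23 to 0.26. The odds of a T>C read fell by 1.498 for KHSRP (SE 0.11, adjusted p = 2.40e-10, edgeR) and by 1.87 for ELAVL1 (SE 0.24, adjusted p = 9.71e-07, edgeR), both on the log2 scale. Scaled by the T>C reads themselves (TMM), neither gene was called in T>C reads: KHSRP was at −0.36 and ELAVL1 at −0.89. With the total of filtered reads, KHSRP was at −0.98, also short of the fold cutoff. IER2 and ZFP36L2 were called lower, and IER5 and BTG1 higher, under that scaling as well.

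The T>C share, which needs no scaling between libraries, was lower in every C646 library than in every DMSO library for 7 of the 9 genes, where 64.6% of 7709 genes were. Of the other 2, BTG1 was higher, and the groups of ZFP36 overlapped near the upper limit of a share, where a change is hard to see. Each comparison of shares without overlap had an exact permutation p of 0.1, the smallest possible with 3 libraries against 3. That of ZFP36 had an exact permutation p of 0.6. In the test of the odds, 5 of the 9 genes were called lower (IER2, ZFP36L1, ZFP36L2, KHSRP and ELAVL1), where 38.3% of 7722 genes were. ZFP36L1 lost its call with DESeq2, the replicate block and conversions, which left 4 of the 9 genes lower. Of all tested genes, 34.2%, 35.8% and 32.7% were then lower, in that order. The genes called higher numbered 0 by edgeR or DESeq2, where 0.790% of all were, with 0 higher at an unadjusted p under 0.05 as well. In C646, the order of the shares was ZFP36, EGR1 (45.1% ± 17.5), IER5, ZFP36L1 (42.3% ± 6.79), ZFP36L2 (39.5% ± 2.40), BTG1 (33.6% ± 2.41), IER2 (26.4% ± 8.77), ELAVL1 (3.35% ± 0.982) and KHSRP (2.78% ± 0.333), each with SD and n = 3. ZFP36, far above the rest, and the step from IER2 to ELAVL1 were separated beyond the spread, as were ZFP36L2 and BTG1, while the other neighbours overlapped. The number of conversions per T>C read was lower in every C646 library for IER2 (2.65 ± 0.135 against 2.14 ± 0.0606) and KHSRP (1.94 ± 0.104 against 1.64 ± 0.200), 2 of 9 genes against 24.9% of all, and higher in every C646 library for 0 of 9 against 1.49%.

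Lists of genes with related roles were counted beside the 9 genes, which are part of some of them. Of 44 immediate early genes, 32 were tested in T>C reads, and 12 (37.5%) were called lower and 7 (21.9%) higher, against 33.0% and 2.97% of all tested genes, with a median log2 fold change of −0.81 against −0.83 for all tested genes. PIM1, a survival kinase, had 51.5 ± 18.8 T>C CPM in DMSO and 4.00 ± 0.659 in C646 (SD, n = 3), a log2 fold change of −3.69 (SE 0.25, adjusted p = 7.66e-13, edgeR), and was at −0.49 in all reads (adjusted p = 0.131, edgeR). JUN, a subunit of the AP-1 transcription factor, and DUSP1, a phosphatase of MAP kinases, rose by 4.33 and 4.51 on the log2 scale (adjusted p = 1.65e-10 and 7.79e-15, edgeR), from no more than 6 and 16 T>C reads per DMSO library. In all reads, 5 of 33 immediate early genes (15.2%) were called lower and 8 (24.2%) higher, against 1.87% and 5.92% of all tested genes, among them JUN (4.51) and DUSP1 (4.72). IER5 thus belonged to the 7 of the list that rose in T>C reads and IER2 to the 12 that fell.

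**Figure D5:**
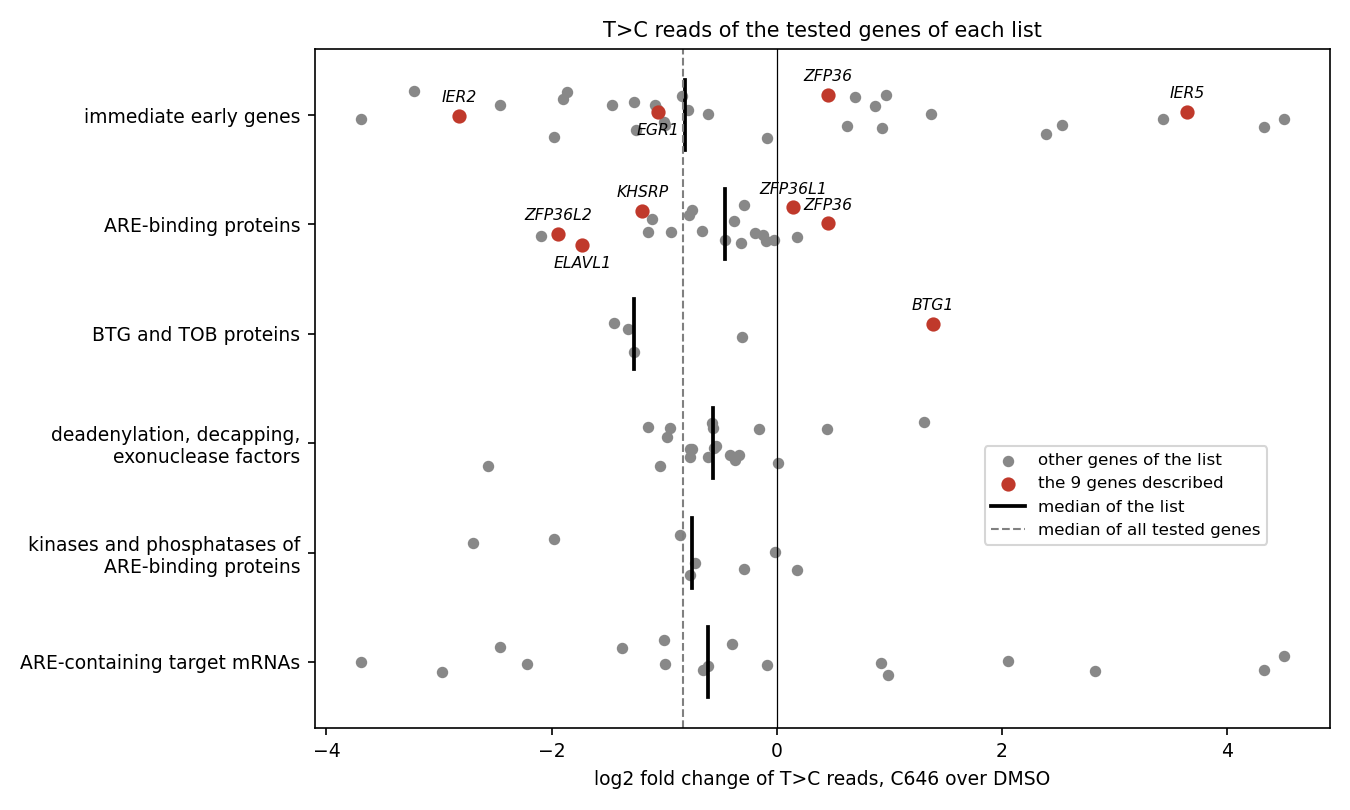
log2 fold change of T>C reads (x axis) for each tested gene of 6 lists, with the 9 genes in red, the median of each list as a black line and the median of all tested genes, −0.83, as a dashed line. The immediate early genes spread from PIM1 at −3.69 to DUSP1 at 4.51, and BTG1 is the only gene of its list right of 0 (with TMM on the T>C reads, TOB1 is as well).

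For the other lists too, the background is 33.0% lower and 2.97% higher in T>C reads scaled by all reads. Of 21 tested ARE-binding proteins, 6 (28.6%) were called lower in T>C reads and 0 higher by edgeR or DESeq2 (0 at an unadjusted p under 0.05), with a median of −0.46. The largest fall, among genes averaging 50 or more T>C reads in a library, was that of HNRNPAB at −2.10 (SE 0.22, adjusted p = 3.93e-09, edgeR), followed by ZFP36L2. HNRNPAB, an ARE-binding nuclear ribonucleoprotein, was at −0.24 in all reads (adjusted p = 0.228, edgeR). In all reads, 0 of 22 were called lower by edgeR or DESeq2 (3 at an unadjusted p under 0.05, ZFP36L2 among them) and 1, YBX1, a cold shock domain protein, higher (1.22, adjusted p = 0.000603, edgeR). Of the 5 BTG and TOB proteins, which share the CCR4-NOT-binding domain, 3 were called lower in T>C reads (BTG3 at −1.44, TOB2 at −1.32 and BTG2 at −1.27) and BTG1 alone was called higher. In all reads, BTG2 was called lower (−1.06, adjusted p = 0.00305, edgeR) and BTG1 higher. Of 20 tested deadenylation, decapping and exonuclease factors, 3 (15%) were called lower in T>C reads, among them CNOT9 (−1.14), a CCR4-NOT subunit, and DCP1A (−1.04), a decapping cofactor, and 0 higher by edgeR or DESeq2 (1 at an unadjusted p under 0.05). Their median was −0.57, and in all reads 0 were called lower by either tool (1 at an unadjusted p under 0.05) and 1 higher. Of 8 tested kinases, phosphatases and adaptors that act on ARE-binding proteins, 2 (25%) were called lower in T>C reads and 0 higher by edgeR or DESeq2, with 0 higher at an unadjusted p under 0.05 (median −0.75). Of 17 tested mRNAs known as ARE targets, of which 7 (DUSP1, FOS, JUN, MCL1, MYC, PIM1 and TNFAIP3) are also among the immediate early genes, 6 (35.3%) were lower and 4 (23.5%) higher in T>C reads (median −0.61), among them PIM1 and the cyclin CCNB1 (−2.97) below and DUSP1 and JUN above. In all reads, 1 of 19 ARE targets (5.26%) was lower and 7 (36.8%) were higher, against 1.87% and 5.92% of all tested genes. Scaled by the T>C reads themselves (TMM), the median was −0.43 for the BTG and TOB proteins and above 0 for the other 5 lists, between 0.011 and 0.37, against 0.0025 for all tested genes. Under that scaling, 7.60% of all tested genes were called lower and 9.14% higher, and the counts of the lists are to be read against these shares. Then 6 immediate early genes were called lower and 13 higher, 2 ARE-binding proteins lower and 1 higher, and 3 ARE targets lower and 6 higher. Of the BTG and TOB proteins 0 were then lower and BTG1 higher, of the deadenylation, decapping and exonuclease factors 0 lower and 1 higher, and of the kinases, phosphatases and adaptors 1 lower and 1 higher. With the total of filtered reads as the scaling, 24.3% of all tested genes were lower and 3.96% higher in T>C reads. Then 9 immediate early genes were lower and 8 higher, and 5 ARE targets lower and 6 higher. The ARE-binding proteins had 3 lower, the deadenylation, decapping and exonuclease factors 1, and the kinases, phosphatases and adaptors 1, with 0 higher in each. The BTG and TOB proteins had 3 lower and 1 higher.

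Promoter sequences (250 bases before to 50 after a transcription start, RefSeq, GRCh38.p14) were found for 7 of the 9 genes. EGR1 holds 2 CArG boxes, the element to which serum response factor binds, where 1.29% of 35116 promoters hold at least 1. They are shown because EGR1 is the gene whose regulation through this element is best known, in capitals, at chr5:138465364-138465393 and chr5:138465386-138465415 on the plus strand, windows that overlap.
EGR1 first box: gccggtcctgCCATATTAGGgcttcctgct
EGR1 second box: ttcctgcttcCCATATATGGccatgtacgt
ZFP36L1 holds the cyclic AMP response element TGACGTCA, to which CREB, a partner of CBP, binds (1.85% of promoters), in 1 of its 2 promoters, in capitals at chr14:68793450-68793479 on the minus strand.
ZFP36L1: agtggaatgagTGACGTCAcagccgcgctc
The shorter TGACG, which lies within TGACGTCA, was found in the promoters of EGR1, BTG1, IER2, KHSRP and ZFP36L1 (24.55% of all promoters). BTG1 holds TATAAA on its own strand (11.5% of promoters), and none of the 8 promoters of these genes held the heat shock element GAANNTTCNNGAA (0.490% of promoters did). All motifs were searched on both strands. The genes without a promoter sequence, which are among IER5, ZFP36, ZFP36L2 and ELAVL1, were not searched. A lack of matches in any of these may thus mean that no sequence was available. These matches describe letters in a window and were not tested for binding.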

How the data were processed

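SLAM-seq 3′ end libraries (QuantSeq) of MOLM-13 cells, 3 with C646 and 3 with DMSO, were analysed from the tables that the authors deposited, 1 per library. The authors used SLAM-Dunk v0.4.1 for alignment to GRCh38 (base calling with CASAVA 1.9, per the labels) and deposited raw counts of reads, T>C reads, conversions and multimapped reads for each 3′ UTR entry, without normalization. The deposited tables also give the coverage of T positions as a signal, and the reads as CPM scaled to the filtered reads of the library. The lengths and numbers of T bases that the authors list are other values, and the table of C646 replicate 3 has 0 for all T base numbers. The deposited T>C reads include reads with 1 conversion. The T bases of all 25420 3′ UTRs compared were those of GRCh38.

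Counts were summed over the entries of a gene. T>C reads, all reads and reads without T>C were tested with edgeR 4.0.16 in R 4.3.3 (filterByExpr, glmQLFit, glmQLFTest, Benjamini-Hochberg adjustment), with TMM on all reads as the scaling, and the odds of a T>C read in a model with a term per library and an interaction of T>C with treatment. CPM values in the text are scaled by the same totals, except those of cell type markers, which use the plain total of 3′ UTR reads. Standard errors (SE) were taken from the fold change and its F statistic (the log2 value over the root of F). The 95% intervals follow from them with the normal quantile, and so are narrower than the edgeR tests imply. For single values, exact permutation tests (two-sided) were used. Each fit was tested on simulated data. Summaries and plots were made in Python 3.11.15 with scipy 1.17.1, pandas 2.3.3, matplotlib 3.10.9 and numpy 2.4.6. 3′ UTRs of like length were those of 0.8 times the length of the gene's own entry to the inverse of that. The members and the lists of genes were chosen with earlier results of these data known. Genes of a list were named where they were the 2 strongest falls or the 2 strongest rises of T>C reads, if called and averaging 50 or more T>C reads in a library. BTG2 and YBX1 were named after their values were seen. Alternatives were other scalings, DESeq2 1.42.0, other filters, single 3′ UTR entries, conversions in place of reads, pseudocounts, a replicate block and the omission of single libraries. Depth limits the precision: a gene with 3 or fewer reads in each library would have been taken as at the floor, which none of the 9 genes was in all reads.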

Additional observations from a re-analysis of the deposited data

How the results depend on the processing

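The directions of the 9 genes in T>C reads held under every alternative run for them (with a minimum of 50 T>C reads, EGR1 was filtered out and the other 8 held), and the count called lower went from 4 to 2 with TMM on the T>C reads or with DESeq2 and size factors from them (KHSRP and ELAVL1 lost their calls). Over all tested genes, 596 were then lower and 717 higher with TMM and 565 and 660 with DESeq2, and 1038 (36.5%) and 125 of only 2843 tested genes with a minimum of 50 T>C reads. In all reads, the total of filtered reads as scaling gave 90 genes lower and 1014 higher, and reads without T>C scaled by themselves (TMM) gave 149 lower. With each library left out in turn, the members called lower in all reads numbered 1 to 2 (ZFP36L2 was added without DMSO replicate 2 and without C646 replicate 3), and all tested genes called lower 119 to 319 in all reads and 37 to 192 in reads without T>C. Without C646 replicate 3, EGR1 was called in T>C reads at −2.02. ELAVL1 in all reads (up to 0.066 with a library left out and 0.22 with the total of filtered reads) took the opposite sign at −0.018 without DMSO replicate 2 and −0.024 without C646 replicate 3. EGR1 in reads without T>C (up to 0.60 with a library left out) did so at −0.024 (scaled by themselves), and at −0.19, −0.093 and −0.29 without DMSO replicate 1, DMSO replicate 2 and C646 replicate 3. The difference of the ZFP36 share ranged from −3.30 to 0.013 percentage points, the latter without DMSO replicate 2, and the ratio of ZFP36 to ZFP36L1 was lower in C646 by −0.34 in all reads. The causes were not tested.

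A replicate block gave 2586 (33.5%) lower and 226 (2.93%) higher genes in T>C reads, and 232 and 700 in all reads. Of the kinases, phosphatases and adaptors, 1 was then lower in T>C reads instead of 2. Of the ARE targets, 5 were higher instead of 4, and the counts of the other lists did not change. ZFP36L1 lost its call in the odds (−1.497, adjusted p = 0.0116, edgeR), as it did with DESeq2 and with conversions in place of reads (−0.70, where ZFP36L2 moved from −2.31 to −1.18), and no other call of the 9 genes changed under the block. The deviations of same-numbered libraries from their group means correlated at −0.012 to 0.010 in T>C reads and −0.0014 to 0.23 in all reads, so the numbers were not taken as pairing. The depth limits EGR1 most, with 4 to 29 T>C reads per library.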

Other observations

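Likeness was measured over 3 standardised values: the log odds of the T>C share in DMSO, and the log2 fold changes first in T>C reads, then in all reads. By this fixed measure, the gene nearest to IER5 was DNAJB4, a heat shock co-chaperone. It had a DMSO share of 52.8% and log2 fold changes of 3.91 in T>C reads and 3.86 in all reads. The gene nearest to IER2 was IRF1, an interferon-induced transcription factor (60.4%, −3.33 and −1.74). EGR1 was nearest to TRIB1 (68.5%, −1.06 and −0.66), a pseudokinase on the list of immediate early genes, and ZFP36L2 to the transcription factor KLF11 (73.0%, −1.90 and −1.02). BTG1 was nearest to BCL2L13 (29.1%, 1.30 and 1.27), KHSRP to CDC123 (6.91%, −1.09 and 0.25), ELAVL1 to HOOK3 (10.2%, −1.61 and 0.023) and ZFP36L1 to TRIM59 (69.5%, 0.059 and 0.79). ZFP36 had no close neighbour: the distance to the nearest gene, ZBTB6, was 1.69, while the other 8 genes had distances of 0.0856 to 0.476. The log odds stretch differences between shares near their upper limit, where ZFP36 lies. Candidates were the 2842 or 2843 other genes that averaged 50 or more T>C reads in a library, and likeness over 3 values says nothing of shared function.

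Over the genes that averaged 50 or more reads in a library, the median T>C share in DMSO was 8.63% for 1926 genes with no ATTTA in the 3′ UTR, 14.3% for 4934 genes with ATTTA and no TTATTTATT, 18.9% for 609 genes with TTATTTATT and 19.9% for 179 genes with at least 3 ATTTA in 30 bases. The 3′ UTRs of these classes also differed in length, with medians of 394, 1638, 2832 and 3125 bases, and in T content, so the classes cannot be told apart from length. ZFP36, ZFP36L1 and ZFP36L2, with a TTATTTATT each, had shares well above the median of that class, whereas ELAVL1, with the densest ATTTA window of the 9 genes, had 11.1%. IER2 had no ATTTA and a share of 61.8%.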
